A study of Mus musculus with 12 samples.

Results

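At 0 h of interferon-γ (IFN-γ), 1325 genes of mouse peritoneal macrophages had an N4-acetylcytidine (ac4C) peak in at least 1 of the 2 deposited 0 h peak lists, and 426 of them (32.2%) had a peak in both. These 426 genes are the recurrent set described here. The comparison set is the 899 genes found in a single list, 508 in list 1 only and 391 in list 2 only. A gene counted as having a peak when the authors' annotation placed the centre of a peak inside it. Of the 21900 protein-coding genes in a mouse reference table, 372 (1.7%) had a peak in both lists and 1155 (5.27%) in either.

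The study followed macrophages of the mouse peritoneum, the lining of the abdomen, kept in 1640 medium with foetal bovine serum and antibiotics. IFN-γ was given for 0, 24 or 48 h, and at each time ac4C-binding RNA and total RNA were sequenced from 2 samples each, 12 samples in 6 groups. Only the 0 h pull-down is described here, that is, cells labelled with IFN-γ treatment and a time of 0 h. The sources used here do not give the strain, age or sex of the mice, any pooling of animals, or the antibody. Each list states its hour but no sample, so list 1 and list 2 carry no order, and nothing says that they came from separate animals or cultures. With 1 group of 2 lists no test between groups was possible, and means are given as mean ± SD over the 2 lists.

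N4-acetylcytidine is a cytidine with an acetyl group on its base. The acetyltransferase NAT10 writes it, helped on transfer RNA by the adaptor THUMPD1, and it is a long-known mark of ribosomal and transfer RNA that has also been mapped on messenger RNA, where it has been linked to stability and translation. In RIP-seq, RNA bound by an antibody is sequenced, and a peak is a stretch where the pull-down holds more fragments than a control. Macrophages of the peritoneum clear particles and dying cells, remodel their actin skeleton to do so, digest the cargo in acidified lysosomes and respond to cytokines.

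The lists held 1151 and 946 peaks, 1048.5 ± 145 (SD, n = 2 lists), with a median width of 270 and 271.5 bases. The authors' fold enrichment, the ratio of pull-down to local control signal at the top of the peak, had a median of 2.94 in list 1 and 3.00 in list 2. Peaks with a q of 1, the weakest value that adjustment for multiple testing can give, made up 25.0% and 26.2%. The number of pull-down fragments at each summit was recovered from the deposited fold and p, with a median of 50 fragments in list 1 and 45 in list 2. A centre lay inside a gene for 91.1% and 91.4% of the peaks. The label was checked against macrophage markers as far as peaks allow. Of 14 markers, Itgam (the integrin CD11b) and Cebpb (a myeloid transcription factor) had peaks in both lists, Lyz2 (lysozyme) in list 2 only, and the others in neither. The strongest Itgam peak of each list also lies in an intron of Gm49368, and without shared peaks Itgam was not recurrent. None of 104 marker genes of 10 other cell types, among them B cells, T and NK cells, neutrophils, mast cells, fibroblasts and mesothelial cells, had a peak in either list. A gene without a peak can still be transcribed, and total RNA was not analysed here, so these counts say nothing of transcript levels.

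The recurrent genes made up 45.6% of the 934 genes of list 1 and 52.1% of the 817 genes of list 2. They were mostly protein-coding, 372 of 426 (87.3%), beside 26 pseudogenes, 9 long noncoding RNAs and 3 guide RNAs, and 16 were not in the reference table. The single-list genes had nearly the same makeup, with 87.1% protein-coding and 5.23% pseudogenes. Recurrence among protein-coding genes was likewise 32.2%.

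Recurrent genes differed from single-list genes in the number of fragments behind their peaks, and not upward in fold enrichment. The strongest peak of a recurrent gene held a median of 81.5 fragments in list 1 and 69.5 in list 2, that of a single-list gene 33 and 24. Over lists the medians were 75.5 ± 8.49 and 28.5 ± 6.36 fragments (SD, n = 2 lists). The control coverage at the summit followed the same order, with medians of 11.5 ± 0.707 in recurrent genes and 3.28 ± 0.429 in single-list genes. In both measures the lists of the recurrent set stayed above both lists of the other set. The median fold enrichment went the other way, at 2.95 and 2.91 for recurrent genes and 3.19 and 3.14 for single-list genes. The median −log10 p was 8.25 and 7.77 against 5.06 and 4.87, and a q of 1 was given to the strongest peak of 11.0% and 15.3% of recurrent genes against 29.5% and 35.5% of single-list genes. The calling of a peak depends on its p, and so on coverage, so these values describe the sets and test nothing.

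The share of genes found again in the other list rose with coverage. In the 20% of genes of list 1 with the fewest fragments (10 to 23), 17.1% were recurrent, and in the 20% with the most (124 to 3426) 80.7% were. In list 2 the shares were 20.7% and 82.3%. Ordered by control coverage the shares ran from 21.4% to 78.1% in list 1 and from 25.0% to 78.0% in list 2. Ordered by fold enrichment there was no such rise: the lowest 20% of genes recurred at 55.6% and 63.4% and the highest at 43.3% and 51.8%. The part of coverage in which genes recur was not tested.

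**Figure D1:**
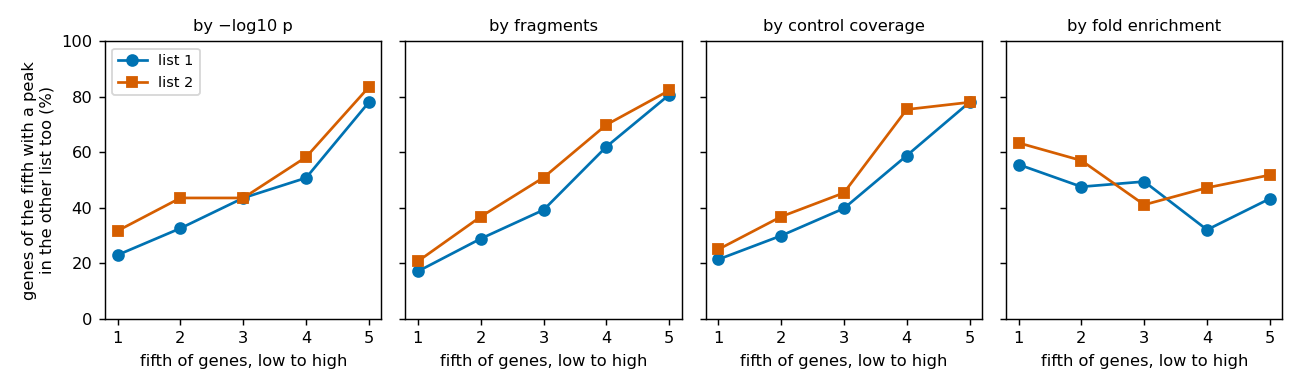
Share of the genes of a 0 h list that also had a peak in the other list (y axis, %), in 5 bins of equal size from low to high (x axis), ordered by −log10 p, fragments at the summit, control coverage or fold enrichment of the gene's strongest peak. Blue circles are list 1 and orange squares list 2. The share climbs from 17.1% and 20.7% to 80.7% and 82.3% over the bins of fragments, and does not climb over the bins of fold enrichment.

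Most recurrent genes had their peak at the same position in both lists. In 365 of the 426 genes (85.7%) a peak of list 1 overlapped a peak of list 2 by at least 1 base, and in 341 (80.0%) by at least 50% of both peaks. In the overlapping pair of each gene with the highest summed −log10 p, the summits lay a median of 17 bases apart (quartiles 7 and 35). In 81.6% of the 365 genes they lay within 50 bases. In 322 genes (75.6%) it was the strongest peaks themselves that overlapped. No peak of a single-list gene overlapped a peak of the other list, which follows largely from how the 2 sets were defined.

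In 61 recurrent genes the lists marked different stretches of the same gene. The highest ranked was Sfpq, a splicing factor of nuclear paraspeckles, with its strongest peak in exon 5 in list 1 (88 fragments, fold 3.94) and in the 3′ UTR in list 2 (79 fragments, fold 5.43). Prdx1, a peroxide-reducing enzyme, had an intronic peak of 28 fragments in list 1 and a last-exon peak of 706 fragments in list 2. The adhesion receptor Cd44 and the maintenance DNA methyltransferase Dnmt1 were in this group too. The median distance between the summits of the strongest peaks of the 2 lists was 3166 bases. The largest, 2618018 bases, belonged to Galnt2l, not in the reference table, whose annotated intron 1 holds both peaks.

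Across the 426 genes, the values of the strongest peak in list 1 and list 2 went together most closely for fragments (Spearman's rho 0.899) and control coverage (0.877). For the percentile rank of −log10 p within a list rho was 0.644, and for fold enrichment 0.511. These are correlations across genes that share 2 libraries, given as a description. The fragment number was higher in list 1 for 326 genes and in list 2 for 87. Fold enrichment was higher in list 1 for 200 genes and in list 2 for 226.

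**Figure D2:**
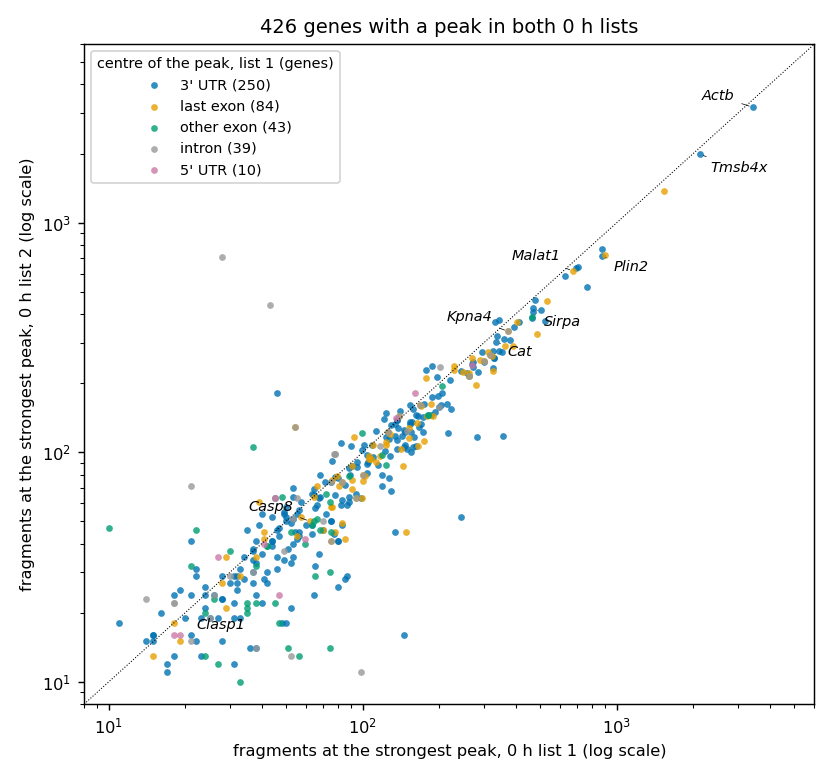
Pull-down fragments at the strongest peak of each of the 426 recurrent genes in 0 h list 1 (x axis) and 0 h list 2 (y axis), both on log scales. Each point is 1 gene, its colour is the place of the peak centre in list 1, and the dotted line marks equal numbers. Points run along the line from about 10 fragments to Actb at 3426 and 3182, and most lie on the list 1 side of it.

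The position with the highest mean rank over both lists was chr3:68992451-68992756 in list 1 and chr3:68992445-68992753 in list 2 (GRCm39, starts and ends as deposited). It lies in intron 12 of Kpna4, an importin α that carries proteins into the nucleus, and on Gm22009, annotated as a guide RNA, the class that directs modification of other RNAs. It held 373 fragments at fold 8.20 in list 1 and 336 at fold 9.31 in list 2, with summits 5 bases apart. Both genes count as recurrent through this single position.

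Below it came genes of the cytoskeleton and of lipid storage. Actb, cytoskeletal β-actin, had 1 peak in each list in its 3′ UTR (chr5:142888942-142889517 and chr5:142888928-142889541) with 3426 and 3182 fragments, the most of any recurrent gene. Its fold enrichment was only 1.57 and 1.83, since the control coverage was 952 and 813. Tmsb4x, the actin-sequestering thymosin β4, had 2125 and 1984 fragments at fold 1.82 and 1.99, also in the 3′ UTR. Plin2, the coat protein of lipid droplets, had 2 peaks in each list, the strongest in the 3′ UTR with 877 and 713 fragments at fold 3.17 and 2.86. These genes rank high by p through many fragments, and their folds lie near or below the median of the set.

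The other high-ranking genes covered trafficking, self-recognition and peroxide defence, with 3′ UTR peaks in Rab7, Sirpa, Cat and Ptma. Rab7, the GTPase of late endosomes and lysosomes, had 701 and 640 fragments at fold 2.93 and 3.16. Sirpa, the inhibitory receptor that reads CD47 and restrains phagocytosis, had 2 peaks in each list, the strongest at fold 3.62 and 4.06. Cat, the peroxisomal enzyme catalase, reached fold 4.93 and 4.76 with 336 and 303 fragments. Ptma, the chromatin-associated prothymosin α, is a case where the lists agree in fragments, 477 and 462, and differ in fold, 2.95 and 5.57, because the control coverage was 70 in list 1 and 38 in list 2. Gm9800, not in the reference table, and the pseudogene Gpx4-ps2 had last-exon peaks at fold 4.10 and 4.97 and at fold 4.22 and 4.13.

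Ranked by the lower of its 2 fold enrichments instead, the set was led by other genes, chosen here after their values were seen. The strongest peak reached fold 4 or more in both lists in 42 of the 426 genes. After the Kpna4 position came Casp8, the protease that starts death-receptor apoptosis, at fold 9.31 and 8.13 with 62 and 50 fragments. Spop, a substrate adaptor of a cullin ubiquitin ligase, followed at 7.28 and 6.19, with its strongest peak in exon 4 in list 1 and in the 5′ UTR in list 2. Hnrnpm, a splicing regulator, stood at 5.80 and 6.09, and Gsk3b, the glycogen synthase kinase, at 6.06 and 5.38. At the thin end, Clasp1, a microtubule-binding protein, reached 5.14 and 5.16 from only 20 and 19 fragments. High fold enrichment in both lists thus came at widely different depths.

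Most recurrent genes carried a single peak. In 280 of 426 (65.7%) there was 1 peak in each list, and 311 had the same number in both. The mean was 1.37 peaks per gene in list 1 and 1.23 in list 2, 1.30 ± 0.0946 (SD, n = 2 lists), against 1.09 and 1.05 for single-list genes, 1.07 ± 0.0329. The share with 2 or more peaks was 27.9% and 17.8% in the recurrent set and 8.86% and 4.09% in the other. Each list of the recurrent set lay above both lists of the other set. A gene with more peaks has more chances to be found in both lists, and the part of that in this difference was not tested.

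There were 49 genes with 2 or more peaks in both lists and 7 with 3 or more in both. In 41 of the 49 at least 2 pairs of peaks overlapped between the lists, and in the other 8 exactly 1 pair did. Internal exons held 21.0% and 22.0% of their peaks, against 6.07% and 7.86% in the 280 genes with 1 peak per list. The 3′ UTR share was 53.2% and 51.7% against 58.9% and 56.4%. Control coverage at the strongest peak was also higher, with medians of 16.8 and 18 against 12 and 11.

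Malat1, a nuclear long noncoding RNA of splicing speckles, had the most peaks, 6 in list 1 and 5 in list 2. Its widest peak spanned 2430 bases in list 1 (chr19:5850241-5852671) and 2210 bases in list 2, with 673 and 615 fragments at fold 3.04 and 3.66. All 5 peaks of list 2 overlapped one of list 1. Myh9, the heavy chain of nonmuscle myosin IIA, had 5 peaks in each list. They comprised the 3′ UTR, exons 22, 24 and 26 in both lists, and exon 33 in list 1 or exon 31 in list 2. Eif3a, the largest subunit of initiation factor 3, had 3 peaks in list 1 (3′ UTR, exons 16 and 17) and 6 in list 2, which added exons 19, 20 and 21. The folds of the exon peaks of Myh9 ran from 1.66 to 3.20, and 3 of the 4 exon positions of each list were at the same exon in the other.

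The other genes with many peaks held them in the 3′ UTR alone or there and in the gene body. Lnpep, a membrane aminopeptidase, had 5 and 3 peaks, and Lrrc58, a leucine-rich repeat protein, 4 and 2, all in the 3′ UTR. Arf3, a GTPase of Golgi vesicle budding, had 3 and 4 there, the strongest at fold 4.96 and 4.59. Sdcbp, the adaptor syntenin, had 3 in each list, 2 of them in the 3′ UTR and 1 in exon 5, at folds between 1.37 and 1.93. Hnrnpu, a nuclear RNA-binding scaffold protein, had 2 in the 3′ UTR and 1 in intron 9 in list 1. In list 2 it had 1 in the 3′ UTR and 1 each in exons 4 and 10. The intron 9 peak of list 1 and the exon 10 peak of list 2 overlap. Sdcbp, Hnrnpu and Lrrc58 tied with Actr2 and Syncrip at 6 peaks over both lists and were taken by rank.

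**Figure D3:**
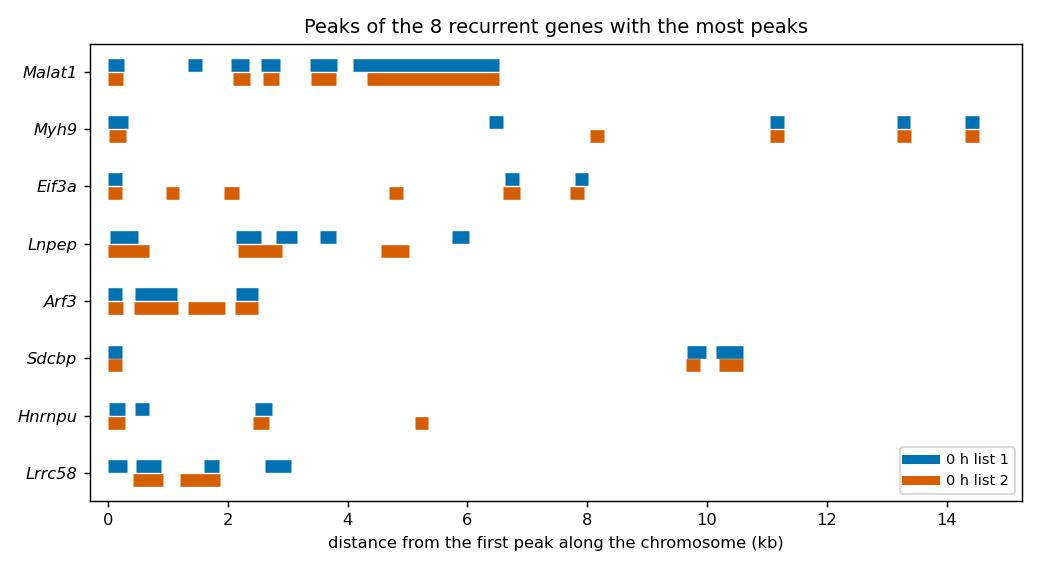
Peaks of the 8 recurrent genes with the most peaks (a tie at 6 peaks was settled by rank), drawn to scale by their distance in kb from the first peak of the gene along the chromosome (x axis), list 1 in blue and list 2 in orange. Malat1 (6 and 5 peaks) shows the same blocks in both lists, Myh9 (5 and 5) repeats 4 of its peaks, and Eif3a has 3 peaks in list 1 and 6 in list 2.

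In the transcript, the peaks of recurrent genes lay most often in the 3′ UTR. The 3′ UTR held 54.7% of 583 gene and peak pairs in list 1 (95% Wilson interval 50.7 to 58.7, counting error only) and 53.6% of 526 in list 2 (49.3 to 57.8). Peaks centred in the last exon but not in an annotated UTR made up 18.2% and 18.1%. They include those of Malat1, of mt-Nd5 and of many of the pseudogenes. Other exons held 14.8% and 15.2%, introns 9.61% and 9.51%, and the 5′ UTR 2.74% and 3.61%. The 2 lists thus gave nearly the same share at every place, which follows in part from the selection. Recurrent genes are the same genes in both lists, and 365 of the 426 have overlapping peaks. Single-list genes are different genes in each list, so their shares were free to differ. In the 3′ UTR they were 60.0% in list 1 and 48.9% in list 2, and in the last exon 15.3% and 22.7%. The mean 3′ UTR share was 54.2 ± 0.781% in recurrent and 54.4 ± 7.85% in single-list genes (SD, n = 2 lists). The means were close, and for the same reason the 2 SDs are not alike in kind.

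**Figure D4:**
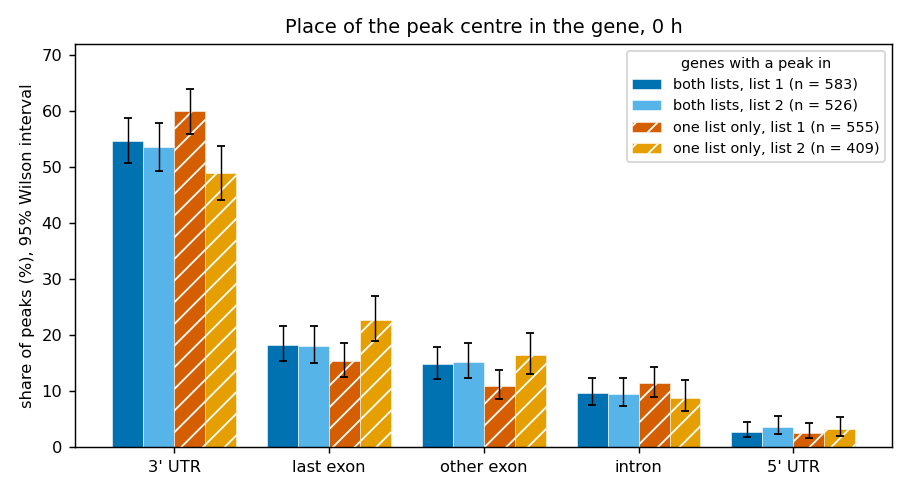
Share of gene and peak pairs (y axis, %) whose peak centre the authors placed in each part of the gene (x axis), for recurrent genes (solid) and single-list genes (hatched) of each 0 h list; whiskers are 95% Wilson intervals. The 2 solid bars, of the same genes in both lists, nearly coincide at every place. The hatched bars, of different genes in each list, part at the 3′ UTR, at 60.0% and 48.9%.

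The distance from the peak centre to the 3′ end of the gene could be computed for 47.7% and 47.9% of the pairs, those of genes whose ends the tables give because their start is the nearest to a peak. Its median was 1239 and 1250 bases, and 42.4% and 41.7% of these peaks fell in the last 10% of the gene. Peaks running from the last exon into the 3′ UTR made up 7.32 ± 0.404% (SD, n = 2 lists), and peaks lying wholly in the 3′ UTR 49.5 ± 1.50%. By gene, 200 of 426 (46.9%) had all their peaks in the 3′ UTR and 150 (35.2%) had none there. The strongest peak lay in the same part of the gene in both lists for 367 genes (86.2%).

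The places differed in depth more than in enrichment. Last-exon peaks had the most fragments, a median of 111.5 and 108, followed by the 3′ UTR with 82 and 69.5. Peaks in other exons had 45.5 and 37.5 and those in the 5′ UTR 42.5 and 41. The median fold was 2.75 and 2.74 in the 3′ UTR, 2.80 and 2.66 in the last exon and 2.72 and 3.15 in other exons. It was highest in the 5′ UTR, at 3.26 and 4.08, where only 16 and 19 pairs lay and where control coverage was lowest (5 and 3).

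A 5′ UTR peak in both lists was found in 10 genes, among them Plk2, Polr2a, Dcun1d5, Gtf2a1, Wnk1, Nabp1, Stk11 and Stat6. Plk2, a polo-like kinase, had 135 and 141 fragments at fold 5.45 and 3.53. Stk11, the kinase LKB1 upstream of AMPK, stood near the depth limit with 18 and 16. Among genes whose strongest peak lay in an internal exon, Hsp90ab1, a cytosolic chaperone, had 465 and 389 fragments in exon 6 at fold 2.37 and 2.54. Ncl, the nucleolar protein nucleolin, had 206 and 195 in exon 4 at fold 3.64 and 3.18, and Cdkn1c, a cell-cycle inhibitor, 180 and 146 in exon 2 at fold 3.06 and 4.33. The Cdkn1c peak also lies in exon 1 of Gm44732, and without shared peaks Cdkn1c was not recurrent.

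Of the 29 recurrent genes with intronic peaks alone, 22 shared the position with a second gene. The highest ranked was Hsd17b4, a peroxisomal β-oxidation enzyme, whose intron 2 peak (fold 3.02 and 2.60) lies on the pseudogene Cd63-ps. Adcy9 with Gm6142, Pam with Btf3-ps1 and Adgrd1 with Rps16-ps2 were of the same kind. Among all 426 genes, 27 were pseudogenes by the table or by name, and 8 of them lay in another gene of the annotation. For the 10 named after a parent gene, the parent itself was recurrent for 2 (Anp32b and Hspd1), in a single list for 1 (Rps24), and without a peak for 7, among them Gpx4, Cd63 and Tpm3. Reads of near-identical copies can be assigned to either copy, so these 27 genes are uncertain as sources. Peaks on more than 1 gene made up 13.2% and 12.7% of the pairs in recurrent genes and 17.8% and 16.4% in single-list genes.

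For function, 32 gene lists holding 1231 genes were counted, and 144 of the 426 recurrent genes (33.8%) were on at least 1 of them. Recurrence was counted by gene, so genes without overlapping peaks count too, among them Hspd1, Hspa4, Lyn, Map4k4, Ddx6, Eif3c and Psmd13. The share of a list with a peak in both 0 h lists is read beside 1.7% of all protein-coding genes, many of which macrophages do not transcribe. The share of its peak-bearing genes that recurred is read beside 32.2%. Neither comparison takes coverage into account. Over all genes, recurrence rose with fragments, from 17.1% to 80.7% in list 1 and from 20.7% to 82.3% in list 2. The part of coverage in the shares of the gene lists was not tested. Splicing factors, the vacuolar proton pump and small GTPases had the largest shares with a peak in both lists, and glycolysis was the only list with no recurrent gene. Nuclear import and export had 1, Kpna4, through the position shared with Gm22009, and 0 with exonic centres or with unshared peaks. With peaks of fold 4 or more alone, the splicing factors kept 4 recurrent genes of 21, the small GTPases 2 of 12 and the proton pump 0 of 5.

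**Figure D5:**
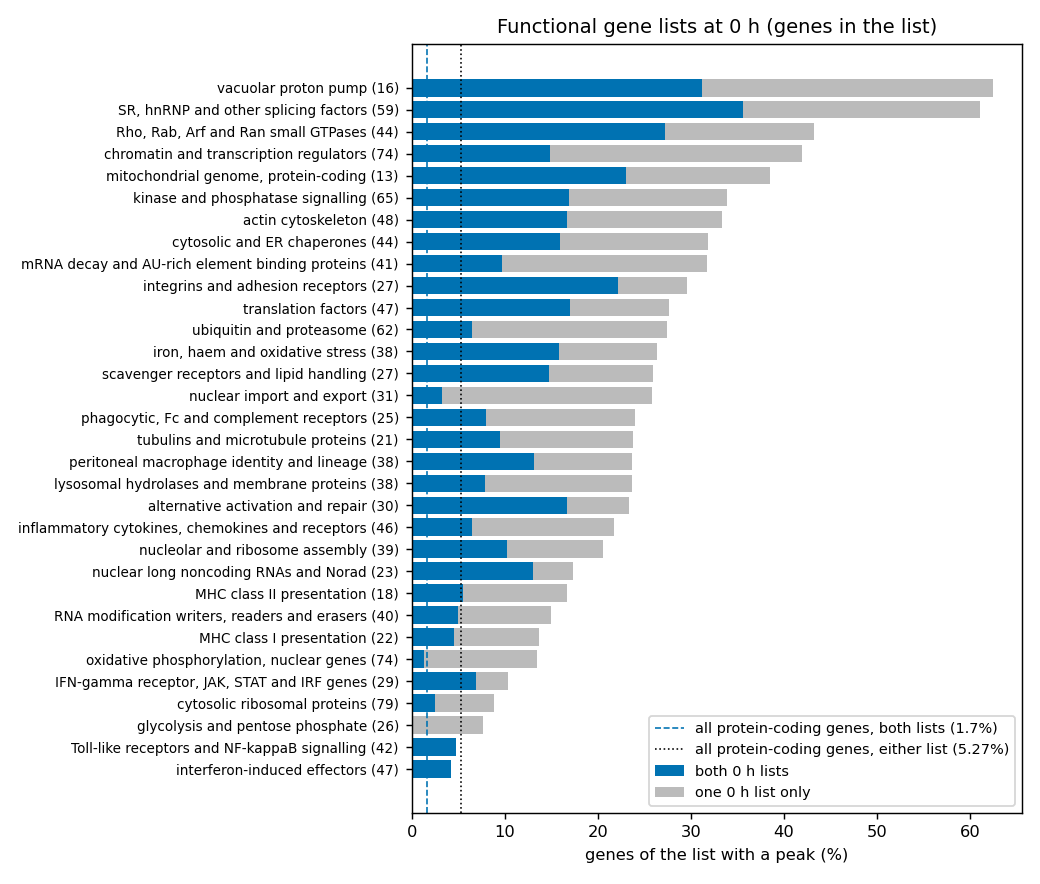
Share of each functional gene list (y axis, with its number of genes) that had a peak in both 0 h lists (blue) or in a single list (grey), in % of the list (x axis). The dashed and dotted lines mark the shares over all protein-coding genes, 1.7% for both lists and 5.27% for either. Splicing factors (35.6% in both), the vacuolar proton pump (31.3%) and small GTPases (27.3%) have the longest blue bars, and glycolysis has none.

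Splicing factors were the largest group, with 21 of 59 in both lists and 15 in a single list, so that 58.3% of those with a peak recurred. Pcbp2, a poly(C)-binding protein, led with 330 and 258 fragments at fold 3.09 and 4.20, at a position also in the 3′ UTR of Map3k12. Hnrnpm and Hnrnpk (136 and 103 fragments, fold 3.55 and 3.50) followed. Srsf1, Srsf2, Srsf3, Srsf5 and Srsf6, the serine- and arginine-rich activators of exon inclusion, were all recurrent, and Srsf7 and Srsf9 were in a single list. Srsf2 stood low, with fold 1.66 and 1.84. The 3′ UTR held 46.8% of the group's pairs, below the 54.2% of the whole set.

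In the translation machinery, with all peaks counted, factors had peaks in both lists far above the share of ribosomal proteins. With a q of 0.05 or less, 3 translation factors and 2 ribosomal protein genes stayed recurrent. With a q of 1e-05 or less it was 1 and 0, and with a fold of 4 or more 0 and 1. Translation factors had 8 of 47 in both lists (17.0%), and 6 of their 27 pairs over both lists lay in the 3′ UTR (22.2%). Eif3a held 9 of the 27 pairs and Eif5b 5. Eif4a1, the RNA helicase of initiation, had a last-exon peak of 269 and 258 fragments at fold 2.82 and 3.20, and the strongest peak of Eif5b lay in exon 4 in list 1 at fold 2.94 and in exon 10 in list 2 at fold 6.79. Nucleolar and ribosome assembly genes had 4 of 39 (Npm1, Ncl, Ddx21 and Ebna1bp2), with 2 of 11 pairs in the 3′ UTR (18.2%). Ncl held 5 of the 11. Of 79 cytosolic ribosomal protein genes only Rplp1 (fold 2.45 and 2.24) and Rpl39 (fold 4.29 and 6.82 on 37 and 27 fragments) were recurrent, 2.53%, close to the 1.7% of all protein-coding genes. Chaperones had 7 of 44, led by Hsp90ab1 and Hspa9, and 2 stayed recurrent with a q of 0.05 or less.

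Among genes of shape and movement, the actin group had 8 of 48 (16.7%): Actb, Tmsb4x, Cfl1, Actr3, Myh9, Marcks, Actr2 and Actn4. Cfl1, the actin-severing cofilin, had 876 and 770 fragments at fold 1.93 and 1.90. Small GTPases had 12 of 44 and recurred in 63.2% of those with a peak, with 86.1% of their pairs in the 3′ UTR. Rab7, Arf3, Rab8b (220 and 207 fragments, fold 4.23 and 4.45), Arf5, Rab1a, Cdc42, Rhob, Rap2b, Arf6, Arf4, Rab18 and Rab21 spanned the endosomal, Golgi and plasma membrane steps of vesicle traffic. Integrins and adhesion receptors had 6 of 27, and 6 of the 8 with a peak recurred (75.0%). With a q of 0.05 or less it was 4 of 7. The integrin chains Itgam (200 and 158 fragments, fold 2.60 and 2.58) and Itgb1, the tetraspanins Cd9 and Cd53, Alcam and Cd44 made up the group, with 92.9% of pairs in the 3′ UTR. In Alcam and Cd44 no peak of list 1 overlapped a peak of list 2.

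Uptake, digestion and lipid handling were present in part. The vacuolar proton pump, which acidifies lysosomes, had the highest share with any peak, 10 of 16 genes, and 5 in both lists. Atp6v1b2 had 470 and 410 fragments at fold 1.91 and 2.35, and Atp6ap1 206 and 182 at fold 2.68 and 3.92. Of 38 lysosomal hydrolases and membrane proteins only Lgmn, Lamp2 and Asah1 recurred. Lgmn, the lysosomal protease legumain, was far the strongest of them, with 361 and 311 fragments at fold 4.07 and 4.58, while Asah1, acid ceramidase, lay near the bottom of list 1 at fold 1.73. Of 25 phagocytic, Fc and complement receptors only Sirpa and Itgam recurred, and none of the Fc receptor genes of the list had a peak. Lipid handling had 4 of 27: Plin2, the sterol acyltransferase Soat1, the lipoprotein lipase Lpl (762 and 525 fragments, fold 1.92 and 1.40) and Fabp4.

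Genes of macrophage state had shares like that of the actin group. The alternative activation and repair list had 5 of 30 (16.7%): Gpnmb, Spp1, Hmox1, Stat6 and Igf1. Gpnmb, a lysosomal glycoprotein, had 1541 and 1367 fragments at fold 1.71 and 2.00, and Spp1, osteopontin, 689 and 636 at fold 2.19 and 2.62. The identity and lineage list had 5 of 38 (13.2%), among them Cd9, Cebpb, Itgam and Bhlhe40, and all pairs of the 5 lay in the 3′ UTR. Cebpb had 196 and 213 fragments at fold 2.79 and 3.60. Iron, haem and oxidative stress genes had 6 of 38, including Cat, Tfrc, the transferrin receptor, and Hmox1, haem oxygenase, whose last-exon peak had fold 2.24 in both lists.

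Inflammatory signalling lists had 1 to 3 recurrent genes each. Cytokines, chemokines and their receptors had 3 of 46 (6.52%), the chemokine Ccl9 (345 and 378 fragments, fold 3.30 and 3.12) and the receptors Il10rb and Cxcr4. A further 7, among them Tnf, Ccl2 and Cxcl2, were in list 2 only. Toll-like receptor and NF-κB genes had 2 of 42 (4.76%), the kinase Irak2 and the NF-κB inhibitor Nfkbia, and none in a single list. Nfkbia had 46 fragments in list 1 and 182 in list 2, an uneven pair. For IFN-γ itself, the receptor chain Ifngr2 was recurrent with 198 and 176 fragments at fold 4.17 and 5.41, and Stat6 was the only other recurrent gene among 29 receptor, JAK, STAT and IRF genes. Jak2 was in list 1 only, on 13 fragments. Of 47 interferon-induced effectors, Slfn2 and the checkpoint ligand Cd274 (PD-L1, fold 3.78 and 2.47) recurred. The Slfn2 peak also lies in an intron of Gm20234, and without shared peaks Slfn2 was not recurrent. Of the antigen presentation lists only Tapbp, the loading factor tapasin, for MHC class I and Lgmn for class II did. Nfkbia, Stat6, Slfn2, Cd274 and Tapbp were no longer recurrent with a q of 0.05 or less.

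Energy metabolism differed between its gene lists. Glycolysis and the pentose phosphate pathway had 0 of 26, and Pkm and Tkt had peaks in list 2 only. Of 74 nuclear genes of oxidative phosphorylation only Sdhd recurred (1.35%, near the 1.7% of all protein-coding genes), and 9 were in a single list. Of the 13 protein-coding genes of the mitochondrial genome, mt-Nd5, mt-Nd2 and mt-Cytb recurred (23.1%; 60.0% of those with a peak), at folds between 1.64 and 2.46.

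Regulators of transcription and of signalling each had 11 recurrent genes. With a q of 0.05 or less 5 and 8 stayed recurrent, and with a q of 1e-05 or less 1 and 4. Chromatin and transcription regulators had 11 of 74 in both lists and 20 in a single list, so 35.5% of those with a peak recurred, close to the 32.2% of all genes. The immediate-early factors Jun, Fos and Egr1 were each in a single list, and Egr2 was recurrent. Kinase and phosphatase signalling had 11 of 65, 50% of those with a peak, among them Gsk3b, the 14-3-3 adaptors Ywhae, Ywhaz and Ywhag, the receptor phosphatase Ptprc (CD45) and the Src-family kinase Lyn. The ubiquitin and proteasome list had 4 of 62 with 13 in a single list (23.5% recurring), nuclear import and export 1 of 31 with 7 (12.5%), and tubulins and microtubule proteins 2 of 21. The nuclear import gene was Kpna4, through the intron 12 position that also lies on Gm22009.

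Among genes that handle RNA marks and decay, neither Nat10 nor its adaptor gene Thumpd1 had a peak in either list. Of 40 RNA modification genes, Ythdc1 and Ythdf2, both readers of N6-methyladenosine, recurred (5.00%), and 4 were in a single list. Ythdc1 had fold 7.53 in list 1 and 2.75 in list 2 on 42 and 39 fragments. Neither reader stayed recurrent with a q of 0.05 or less. Decay factors had 4 of 41 (9.76%), Btg1, Ddx6, Upf1 and Hnrnpd, and 9 in a single list, so 30.8% of those with a peak recurred. Beside Malat1, the long noncoding RNAs Norad, a sponge for Pumilio proteins, and Neat1, the scaffold of paraspeckles, recurred with fold 3.37 and 2.74 and fold 3.13 and 2.64. Upf1 and Neat1 were not recurrent with a q of 0.05 or less.

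The authors' deposited tables give Gene Ontology terms for 383 recurrent and 796 single-list genes. The term plasma membrane was carried by 27.9% of recurrent and 20.5% of single-list genes, cytosol by 36.6% and 29.1%, and nucleotide binding by 18.0% and 11.9%. RNA binding was carried by 13.3% and 9.80%. Mitochondrion (12.3% and 12.6%), nucleolus (7.31% and 8.29%) and Golgi apparatus (8.88% and 10.1%) were nearly level. Metal ion binding was lower in recurrent genes, at 15.7% against 18.2%. These shares were compared without a test.

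Single-list genes were not all weak. In list 1, Pcna, the sliding clamp of DNA replication, had a 3′ UTR peak of 136 fragments at fold 7.55 and stood at percentile 97.9 of the list. Gstm1, a glutathione transferase, had 442 fragments at fold 2.77, and Ucp2, a mitochondrial carrier, 311 at fold 3.42. In list 2, the macrophage marker Lyz2 had 1265 fragments at fold 1.55, Rplp2-ps1, at a position also in the 3′ UTR of Wdr89, had 560 at fold 2.68, and Gm4149 with Mir682 had 332 at fold 3.91. None of them had a peak in the other list, though their fragment numbers exceed the median of the recurrent set.

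The last of these was the highest-ranked position of list 2 that list 1 lacked (chr13:75793061-75793291), and Mir682 was the only gene with a peak that the reference table classes as a microRNA. Its mature sequence is shown because the position counts under this name; the capitals mark the seed, bases 2 to 8, and the sequence is that of RefSeq (GRCm38.p6).
mmu-miR-682: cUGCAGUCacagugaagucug
The peak also lies on the pseudogene Gm4149, and which of the 2 genes its fragments came from cannot be told apart.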

How the data were processed

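The series holds 12 samples of ac4C RIP-seq and total RNA. The build GRCm39 and the tools MACS2 2.1.0 and BWA 0.7.12 stand in the submitters' processing notes, without roles or settings. Per the file headers, the deposited tables give for each summit the fold enrichment, p and q values as −log10, a peak score, and the count of overlapped genes with their annotation and Gene Ontology terms. No source used here names the control library. The 4 tables of later times were not used.

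A peak was 1 region of a list with the values of its strongest summit, and its place was the annotation of its centre, with the 3′ UTR first where annotations differed. Starts are printed as deposited and may be off by 1 base. Fragments k and control coverage were solved from the deposited fold, (k × factor + 1) / (coverage + 1), and p, a Poisson tail. The factor was 0.437 in list 1 and 0.468 in list 2, and all summits matched within 0.005 of −log10 p, 90.7% and 91.2% of them with a single solution. Gene types came from a RefSeq gene table for GRCm38.p6, used for names only, which matched 95.5% of 1325 symbols.

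Members, gene lists and named genes were chosen with earlier results of these data known. Named were the 12 highest by mean percentile of −log10 p, the 8 with the most peaks, the 3 highest of each place, of noncoding genes and of each functional list, and the 5 highest of each list among single-list genes with the highest of each functional list; genes were also named where a count was 5 or fewer, and others outside these rules were chosen after their values were seen. The text gives the most informative of them, and some genes are not reported here. Alternatives were stricter q and fold, equal list lengths, exonic centres, unshared peaks, protein-coding genes, merged regions and each list alone. Scripts were tested on simulated data. Python 3.11.15, pandas 2.3.3, scipy 1.17.1 and statsmodels 0.14.6 were used.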

Additional observations from a re-analysis of the deposited data

How the results depend on the processing

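The 426 recurrent and 899 single-list genes became 232 and 478 with a q of 0.05 or less, 127 and 204 with a q of 1e-05 or less, and 46 and 310 with a fold of 4 or more. Equal list lengths (393), exonic centres (382), peaks on 1 gene (363) and protein-coding genes (372) kept the count within 1.5 times. Counted as merged regions, 426 of 1666 had a peak in both lists, or 395 of 1702 with 50% of both peaks. These are regions and not genes, so the equal count of 426 is no repeat of the gene set. The excess of peaks per gene, 0.232 as reported, fell to 0.121 at a q of 1e-05 or less and to 0.0387 at a fold of 4 or more. Taken per list, with the sets still defined by both lists, it was 0.276 in list 1 and 0.189 in list 2. The 3′ UTR share of recurrent genes, 54.2%, was 56.3% at a q of 0.05 or less, 51.6% at a fold of 4 or more and 55.7% with equal lists. It was 60.4% with exonic centres, 57.9% with peaks on 1 gene and 60.6% with protein-coding genes. Taken per list, for the same genes, it was 54.7% in list 1 and 53.6% in list 2. Recurrent genes on the functional lists numbered 60 at a q of 1e-05 or less and 16 at a fold of 4 or more, against 144. Overlapping position fell from 85.7% to 80.0% with 50% of both peaks, and rho from 0.644 to 0.511 with fold enrichment. The stricter settings keep fewer peaks by construction. Of 88 named recurrent genes, 58 stayed recurrent at a q of 1e-05 or less, 14 at a fold of 4 or more and 81 with peaks on 1 gene.

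No paired analysis was possible because only 1 group was described and its lists carry no sample. A gene missing from a list had no peak called there, which does not show absence of the mark. Fragments without molecular identifiers are not independent molecules, so intervals cover counting error only.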
